A study of Sinibotia superciliaris with 2 samples.

Results

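The genes described here make, break down, move and sense lipids: enzymes of fatty acid synthesis and oxidation, acyltransferases, lipases and phospholipases, and genes of phosphoinositide, sphingolipid and sterol metabolism. They were measured in black and in yellow skin of the striped loach Sinibotia superciliaris (also known as Botia superciliaris). Members were chosen from the deposited annotation by words in the description of each unigene's best protein match: acyl-CoA, acyltransferase, fatty acid, phospholipase, lipase, sphingo, ceramide, sterol, phosphatidyl, phosphoinositide or enoyl (a unigene is a gene identifier of the assembled transcriptome). Of 175 unigenes with such words, 6 were dropped by the rule, among them those of lipoprotein lipase and DGAT2. The remaining 169 unigenes were summed by their best Swiss-Prot name into 131 genes, out of 4058 named genes and 124650 unigenes in all. Genes are called by that Swiss-Prot entry name, which can differ from the gene symbol, and a name marks the closest match, not orthology.

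Each skin colour was represented by a single RNA library. Both came from wild adults of 6.25 ± 0.30 g and 8.75 ± 0.20 cm, and per the labels skin of both colours was taken from 6 individuals; what the ± values are, and whether the fish were pooled, is not stated. With 1 library per colour no comparison has a replicate check and no p-value can be given, so every difference below is one between these libraries. Depth was 35386871 reads for black and 38323075 reads for yellow skin. Melanophore markers stood apart by colour: of 6 listed, 4 were annotated, and they summed to 21.5 RPM in black and 1.96 RPM in yellow skin. The keratinocyte markers desmoplakin and desmoglein 2, the 2 annotated of 8 listed, summed to 610.4 RPM in black and 457 RPM in yellow skin.

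Fatty acids are built by fatty acid synthase, lengthened by elongases in the endoplasmic reticulum and burnt by beta-oxidation in mitochondria and peroxisomes. Acyltransferases join them to glycerol to make phospholipids and stored fat, and lipases release them again. In the skin of mammals, very long chain fatty acids, ceramides and cholesterol make up much of the lipid that limits water movement through the epidermis. Phosphoinositides are membrane lipids present in small amounts whose kinases, phosphatases and phospholipases carry signals from cell surface receptors.

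As a group the lipid genes sat with the bulk of genes, and none reached a 2-fold difference between the colours on the log2(RPM + 1) scale. Levels are in RPM, a gene's reads relative to the library total (all unigenes together come to 999612 RPM in black and 999622 RPM in yellow skin), with no division by transcript length. Each log2 ratio sets black over yellow after adding 1 to the RPM, a step that shrinks the differences of low genes. Of the 131 genes, 119 had a mean of at least 1 RPM and are called measured. Across all 3644 measured genes the median log2 ratio was 0.21, so that a gene near 0.21 sat with the bulk, and the median RPM ratio was 1.17. After TMM scaling, which applies 1 factor per library, the median log2 ratio of all genes was 0.03, so genes are placed against the median of all genes and not against 0. The 119 lipid genes had a median log2 ratio of 0.19. All genes here means the genes named by the annotation. Over all 31795 measured unigenes, named or not, the median log2 ratio was 0.14, lower than that of the lipid genes. That median is over single unigenes while the lipid genes are sums by name, so they are not like for like. Placement against that lower median was not run, and calls of genes near the bulk could differ with it. The standard deviation across the lipid genes was 0.26, against 0.30 over all genes. No lipid gene was at least 2-fold apart, where 0.96% of all measured genes were (0.823% higher in black and 0.137% higher in yellow skin), and none had a counting interval wholly beyond 2-fold, where 0.714% of all genes did. Without the added 1, the low genes CEGT and NSDHL had RPM ratios of 2.17 (1.24 to 3.91) and 0.467 (0.27 to 0.784), with intervals that reached within 2-fold. At a 1.5-fold rule 5 lipid genes were higher in black skin, or 4.2%, against a background of 6.81%, and 1 was higher in yellow skin, or 0.84%, against 1.43%. Their summed level was 3761 RPM in black and 3329 RPM in yellow skin.

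Ratios of RPM, black over yellow, carry below a 95% interval that covers counting error only. For 16 lipid genes (13.4%) the interval lay wholly above the median ratio of all genes, where 19.0% of all measured genes did, and for 26 (21.8%) it lay wholly below, where 20.0% did. These genes are called here above or below the bulk. The share above was lower than the background and the share below was slightly higher. The results that follow describe how roles and single genes were placed within a list that as a whole lay with all genes. RNA from fewer cells of a type and less RNA per cell cannot be told apart in these bulk samples.

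**Figure D1:**
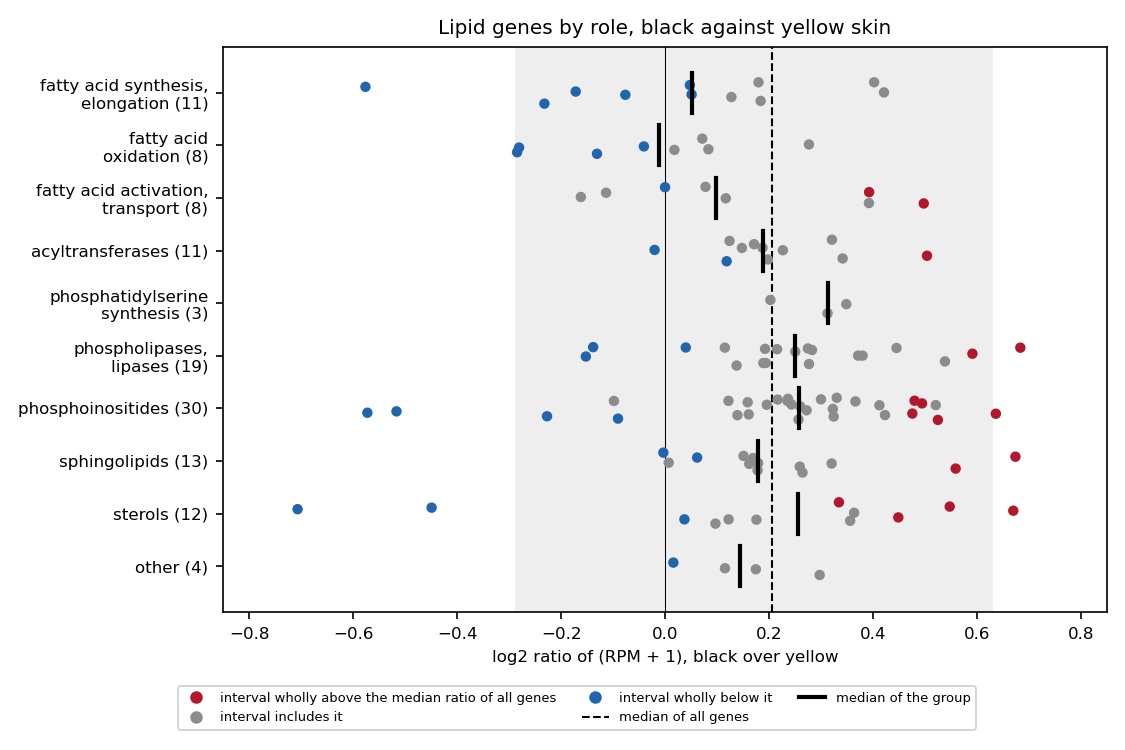
Log2 ratio of (RPM + 1), black over yellow, of each of the 119 measured lipid genes (points), by role, with the number of genes in brackets. Thick bars are group medians, the dashed line is the median of all genes (0.21) and grey covers their 5th to 95th percentile; the medians of fatty acid oxidation (-0.01) and fatty acid synthesis (0.05) lie furthest to the yellow side.

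Mitochondrial fatty acid oxidation was the role placed most to the yellow side. Of its 8 measured genes, 7 lay below the median of all genes, 4 had a log2 ratio below 0 (19.7% of all genes did) and the median was -0.01. They summed to 347 RPM in black and 403 RPM in yellow skin. ACADV, the dehydrogenase that opens the oxidation of very long chains at the inner membrane, was at 181 RPM in black skin and 219.9 RPM in yellow skin, with an RPM ratio of 0.822 (0.785 to 0.861). ACADM, the dehydrogenase for medium chains, was at 83.4 RPM in black skin and 102 RPM in yellow skin, with an RPM ratio of 0.819 (0.765 to 0.877). Both intervals lay below the bulk and below 1, so on the deposited scale both were higher in yellow skin by more than counting error. ECHM, the hydratase of the next step, at 16.8 RPM in black skin and 17.3 RPM in yellow skin, and HCD2, a hydroxyacyl-CoA dehydrogenase, at 10.8 RPM in black skin and 12 RPM in yellow skin, were also below the bulk, with ratios of 0.971 (0.827 to 1.14) and 0.906 (0.744 to 1.1). The dehydrogenases for short and for short branched chains, ACADS at 23.9 RPM in black skin and 22.7 RPM in yellow skin and ACDSB at 9.94 RPM in black skin and 9.81 RPM in yellow skin, had intervals that included the bulk ratio. ECI2, an isomerase needed for unsaturated chains, was at 18 RPM in black skin and 17 RPM in yellow skin with a log2 ratio of 0.08. The single gene on the black side of the bulk, COAC, at 3.28 RPM in black skin and 2.53 RPM in yellow skin, matched the word rule only through its chemical name and works in coenzyme A synthesis. DECR, a mitochondrial reductase for the oxidation of unsaturated chains that the keywords placed with synthesis, also lay on the black side, with a log2 ratio of 0.40.

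Other genes of this pathway, taken from a list and outside the word rule, were placed alike. The list was chosen with earlier results of these data known, so it is no independent check. Of 12 listed, 6 were annotated, all 6 were measured, and all 6 were below the bulk by their counting intervals, a placement that 20.0% of all genes had. ECHA and ECHB, the subunits of the trifunctional protein that carries out the last steps on long chains, were at 125 RPM in black skin and 150.4 RPM in yellow skin for ECHA, and at 145 RPM in black skin and 176 RPM in yellow skin for ECHB. Their ratios were 0.832 (0.787 to 0.879) and 0.82 (0.779 to 0.864), close to those of ACADV and ACADM. CPT1A, which loads fatty acids onto carnitine for entry into mitochondria, had an RPM ratio of 0.953 (0.894 to 1.02) and CPT2, which unloads them, one of 0.896 (0.741 to 1.08). The electron acceptor subunits ETFA and ETFB had ratios of 1.06 (0.981 to 1.15) and 0.908 (0.793 to 1.04). ECI1, an isomerase outside both the rule and the list, was at 8.93 RPM in black skin and 15.8 RPM in yellow skin, a log2 ratio of -0.76. ECI1 was added after its value was seen and so gives no support either to the placement of the other genes. Skeletal muscle markers were split, some to the same side and some to the other. Of 16 listed, 5 were annotated and none of these was at 0. They summed to 2084 RPM in black and 2290 RPM in yellow skin, with MYH4, PGAM2 and ENOB below the bulk and ACTS and AT2A1 above it. AT2A1 was past 2-fold on the black side, at 39.3 RPM in black skin and 15.8 RPM in yellow skin. The part of these markers in the placement of the oxidation genes was not tested.

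Genes of fatty acid synthesis and elongation also lay mostly below the median of all genes, 9 of 11, with a median log2 ratio of 0.05. By their intervals 6 were below the bulk, where 20.0% of all genes were, and none above, where 19.0% were. PECR, a peroxisomal enoyl-CoA reductase, was the member most to the yellow side, at 1.89 RPM in black skin and 3.31 RPM in yellow skin, with an RPM ratio of 0.571 (0.364 to 0.882). Its interval excluded 1, and it rested on 67 black and 127 yellow reads. ELOV6, the elongase of saturated chains of middle length, was at 8.13 RPM in black skin and 9.73 RPM in yellow skin with an RPM ratio of 0.836 (0.668 to 1.04). SAST, a thioesterase that releases medium chains from the synthase, and ELOV4, an elongase for very long chains of eye and skin, had ratios of 0.868 (0.65 to 1.16) and 0.944 (0.765 to 1.16). ELOV7 and TECR, the elongase and the reductase that ends each elongation round, were at 68.2 RPM in black skin and 66 RPM in yellow skin for ELOV7, and at 61.9 RPM in black skin and 59.7 RPM in yellow skin for TECR, and both were below the bulk. ELOV1, an elongase for very long saturated chains, was at 121 RPM in black skin and 106 RPM in yellow skin, with an RPM ratio of 1.13 (1.07 to 1.21) that included the bulk. The dehydratases HACD1 and HACD2 had log2 ratios of 0.18 and 0.13.

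The remaining genes of this group, DECR and FAS, were on the black side with intervals that included the bulk. DECR, a dienoyl-CoA reductase that serves the oxidation of unsaturated chains and came here by the word reductase, was at 6.84 RPM in black skin and 4.93 RPM in yellow skin (log2 ratio 0.40). FAS, fatty acid synthase, was at 2.26 RPM in black skin and 1.43 RPM in yellow skin, with an RPM ratio of 1.58 (0.946 to 2.66). All 4 FAS unigenes had pig (Sus scrofa) proteins as their best match, unlike most members. In all 169 unigenes, 134 matched zebrafish best and 8 matched pig, human or macaque; these 8 summed to 9.18 RPM in black and 5.37 RPM in yellow skin, and 7 were higher in black skin. Of all 5676 annotated unigenes 44 matched these mammals best, of which 35 were higher in black skin, as were 3188 of the 4183 that matched zebrafish best. Where these sequences came from was not tested, and FAS, CEGT, LIPG, ACBP and a minor unigene of PLCB4 are to be read with that. On the list of other lipogenesis genes, 5 of 7 were annotated, all 5 were measured and none was past 1.5-fold. ACLY, which makes the acetyl-CoA for synthesis, was at 74.5 RPM in black skin and 58.5 RPM in yellow skin (1.27, interval 1.17 to 1.38), above the bulk. ACAC and ACACB, acetyl-CoA carboxylases, had ratios of 0.923 (0.851 to 1.0) and 0.915 (0.786 to 1.07), below it.

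**Figure D2:**
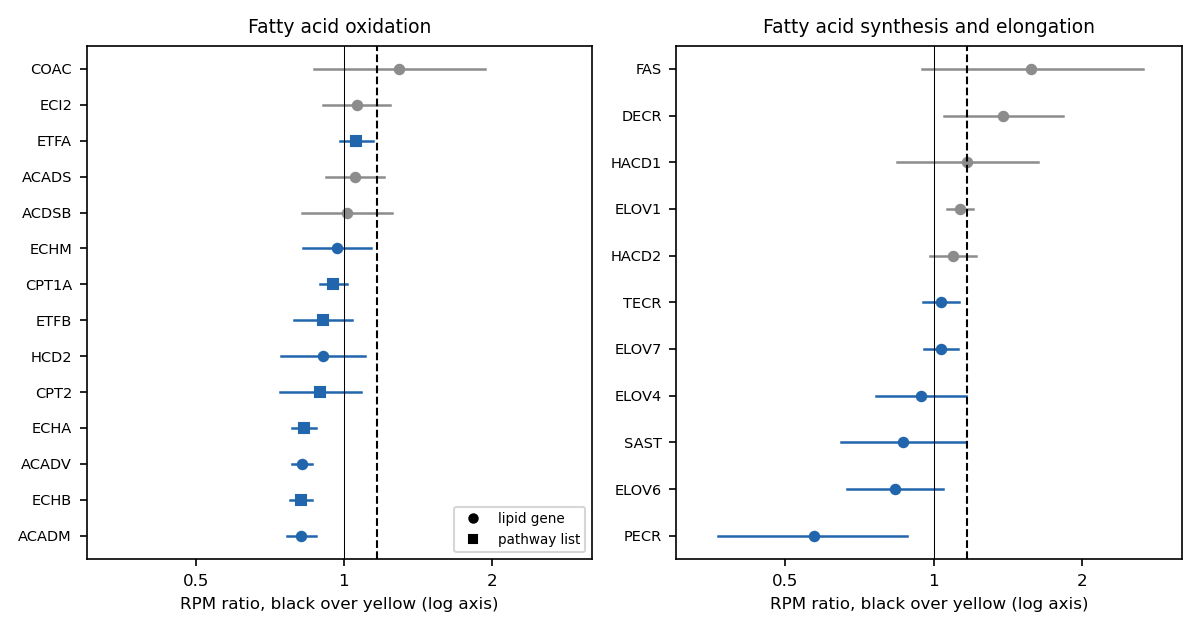
RPM ratio, black over yellow, on a log axis, with 95% counting intervals, for the measured genes of fatty acid oxidation (left; circles are lipid genes, squares the pathway list) and of synthesis and elongation (right). The thin line marks a ratio of 1 and the dashed line the median ratio of all genes (1.17); blue intervals lie wholly below the dashed line (10 of 14 on the left, 6 of 11 on the right) and grey ones include it.

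Among 8 measured genes of fatty acid activation and transport, 2 were above the bulk and 1 below it, where 19.0% and 20.0% of all genes were. S27A6, a fatty acid transporter, was at 57 RPM in black skin and 40.1 RPM in yellow skin, with an RPM ratio of 1.42 (1.29 to 1.56). ACSL3, a long-chain acyl-CoA synthetase, was at 52.6 RPM in black skin and 39.8 RPM in yellow skin, with an RPM ratio of 1.32 (1.2 to 1.46). Both were above the bulk, but the main ACSL3 unigene alone, c109195_g5, had a ratio of 1.18 (1.06 to 1.33) that included it, and the minor c109195_g2 one of 1.75 (1.45 to 2.12). The sister transporters S27A1 at 32.6 RPM in black skin and 30.8 RPM in yellow skin and S27A2 at 22.8 RPM in black skin and 20.9 RPM in yellow skin were not above it, with log2 ratios of 0.08 and 0.12. FA2H, which hydroxylates the fatty acids of sphingolipids, was at 19.4 RPM in black skin and 19.4 RPM in yellow skin and below the bulk. ACSF3, a synthetase for malonyl-CoA in mitochondria, and FFAR2, a receptor for short-chain fatty acids, were at 2.06 RPM in black skin and 2.43 RPM in yellow skin for ACSF3, and at 2.12 RPM in black skin and 2.37 RPM in yellow skin for FFAR2, and their intervals included the bulk. The median of the 8 measured genes was 0.10, to the yellow side of the bulk, and turned to the black side of it (0.25 against 0.21) when only genes of at least 5 RPM were kept.

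Acyltransferases sat with the bulk and were the least spread of the roles with 8 or more genes. Their median log2 ratio over 11 measured genes was 0.19, with a standard deviation of 0.14 across genes. PLCA, an enzyme that makes phosphatidic acid, was at 21.1 RPM in black skin and 14.6 RPM in yellow skin, with an RPM ratio of 1.45 (1.24 to 1.69), the single member above the bulk. ODB2, at 8.93 RPM in black skin and 6.83 RPM in yellow skin, belongs to the breakdown of branched-chain amino acids and entered through its name. PCAT2, a lysophosphatidylcholine acyltransferase of membrane remodelling, was at 105 RPM in black skin and 96.3 RPM in yellow skin and, with an RPM ratio of 1.09 (1.02 to 1.16), below the bulk. GNPAT, which starts ether lipid synthesis in peroxisomes, was at 26.9 RPM in black skin and 27.3 RPM in yellow skin, also below. DGAT1, an enzyme of triglyceride synthesis, was at 30.7 RPM in black skin and 28.1 RPM in yellow skin with a ratio of 1.09 (0.968 to 1.23). The 3 genes of phosphatidylserine metabolism, PTSS1, PISD and PTSS2, had log2 ratios of 0.35, 0.31 and 0.20, and each interval included the bulk ratio. They were at 15.5 RPM in black skin and 11.9 RPM in yellow skin for PTSS1, at 29.7 RPM in black skin and 23.7 RPM in yellow skin for PISD, and at 27.3 RPM in black skin and 23.6 RPM in yellow skin for PTSS2; PTSS1 and PTSS2 make phosphatidylserine and PISD turns it into phosphatidylethanolamine.

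Of 19 measured phospholipases and lipases, 2 were above and 3 below the bulk, where 19.0% and 20.0% of all genes were. PLCL2, a phospholipase C relative without enzyme activity, had a log2 ratio of 0.68, at 37 RPM in black skin and 22.7 RPM in yellow skin, with an RPM ratio of 1.63 (1.44 to 1.85). Its relative PLCL1 was at 11.5 RPM in black skin and 8.58 RPM in yellow skin, with an RPM ratio of 1.34 (1.08 to 1.65) that included the bulk. PLA2R, the receptor for secreted phospholipase A2, was at 24.8 RPM in black skin and 16.1 RPM in yellow skin, with an RPM ratio of 1.54 (1.33 to 1.78). At the other end stood NAPEP, which releases N-acylethanolamines, at 10.6 RPM in black skin and 11.9 RPM in yellow skin, and LICH, the acid lipase of lysosomes, at 8.56 RPM in black skin and 9.52 RPM in yellow skin. Their ratios were 0.891 (0.731 to 1.09) and 0.899 (0.72 to 1.12). PLPL2, the lipase that starts triglyceride breakdown, was at 41.7 RPM in black skin and 40.6 RPM in yellow skin, below the bulk with a ratio of 1.03 (0.929 to 1.14). The enzymes that follow it, LIPS (hormone-sensitive lipase) and MGLL (monoglyceride lipase), were at 1.16 RPM in black skin and 0.887 RPM in yellow skin for LIPS, and at 9.94 RPM in black skin and 8.42 RPM in yellow skin for MGLL, with log2 ratios of 0.19 and 0.22 that sat with the bulk. LIPE, which is endothelial lipase in Swiss-Prot naming, had the highest RPM of the group, 71.6 in black and 66.1 in yellow skin. The cytosolic phospholipase A2 PA24A, which frees arachidonic acid, was at 64.5 RPM in black skin and 56.3 RPM in yellow skin with a ratio of 1.15 (1.05 to 1.25).

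Phosphoinositide genes formed the largest role, with 30 measured genes, of which 20 lay above the median of all genes. By their intervals 5 were above and 4 below the bulk, where 19.0% and 20.0% of all measured genes were. Their median log2 ratio was 0.26. The keywords also placed the GPI anchor genes GPAA1, PIGX and PIGH in this role, with log2 ratios of 0.49, 0.41 and 0.12. Of these GPAA1 is among the genes above the bulk. The phospholipases C, which cut phosphatidylinositol bisphosphate into the messengers inositol trisphosphate and diacylglycerol, differed among themselves. PLCB3 was at 85.6 RPM in black skin and 54.7 RPM in yellow skin, with an RPM ratio of 1.56 (1.44 to 1.69), and PLCD1 at 126 RPM in black skin and 89.9 RPM in yellow skin, with an RPM ratio of 1.4 (1.31 to 1.49); both were above the bulk. PLCB1 was instead at 5.17 RPM in black skin and 7.82 RPM in yellow skin, with an RPM ratio of 0.661 (0.504 to 0.862), over 5 unigenes. Its most abundant unigene alone, c99086_g1, had a ratio of 0.89 (0.55 to 1.43), which included both 1 and the bulk. PLCB4, PLCE1 and PLCH2 had log2 ratios of 0.27, 0.42 and 0.37 and intervals that included the bulk. PLCB2, an isoform of blood cells in mammals, rested on 75 black and 45 yellow reads, with an RPM ratio of 1.8 (1.04 to 3.19).

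The lipid kinases were likewise spread. PI42C, a phosphatidylinositol 5-phosphate 4-kinase, was at 27.6 RPM in black skin and 18.9 RPM in yellow skin, with an RPM ratio of 1.46 (1.27 to 1.68), above the bulk. PI5L1, a relative of the 4-phosphate 5-kinases with no known kinase activity of its own, was at 5.2 RPM in black skin and 8.22 RPM in yellow skin, with an RPM ratio of 0.633 (0.484 to 0.823), the lowest of the group. Of the 5-kinases proper, PI51C and PI51B sat with the bulk at 200.4 RPM in black skin and 170.0 RPM in yellow skin for PI51C, and at 61.8 RPM in black skin and 52.3 RPM in yellow skin for PI51B, while PI51A, at 16.9 RPM in black skin and 18 RPM in yellow skin, lay below it. PI51C and FYV1 (PIKfyve, the kinase that makes the endosomal lipid with phosphates at the 3 and 5 positions), at 133 RPM in black skin and 114 RPM in yellow skin, had ratios of 1.18 and 1.16, near the median of all genes. Among catalytic subunits of phosphoinositide 3-kinases, PK3CA was above the bulk at 17.7 RPM in black skin and 12.4 RPM in yellow skin, with an RPM ratio of 1.42 (1.2 to 1.69). These values hold for its member unigenes only. A further PK3CA unigene, c104083_g1, is no member by its description and was at 19.3 RPM in black skin and 11.4 RPM in yellow skin (log2 ratio 0.71). PK3CB, PK3CD, PK3C3 and P3C2B had ratios between 1.11 and 1.24 with intervals that included the bulk. The opposing 5-phosphatases SHIP1 and SHP2A had ratios of 1.26 (1.12 to 1.42) and 1.26 (1.16 to 1.36). GPAA1, which attaches GPI anchors to proteins, was above the bulk at 12.9 RPM in black skin and 8.89 RPM in yellow skin, and DAPP1, an adaptor of mammalian B cells that binds products of the 3-kinases, below it at 4.8 RPM in black skin and 5.79 RPM in yellow skin. Immune cell markers lay on the black side, with 4 of 10 listed annotated (LCK, CXCR4, CSF1R and ZAP70), none at 0. All 4 were above the bulk, where 19.0% of all genes were, with a sum of 145 RPM in black and 86.2 RPM in yellow skin. CSF1R had the highest ratio of the 4, at 65.3 RPM in black skin and 34.8 RPM in yellow skin, a large part of both sums. Its RNA need not come from immune cells alone, so the sums are no measure of immune cell content. SHIP1, PK3CD and PLCB2, which blood cells use, had intervals that included the bulk, and DAPP1 was below it. The part of the immune markers in the ratios of these lipid genes was not tested.

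**Figure D3:**
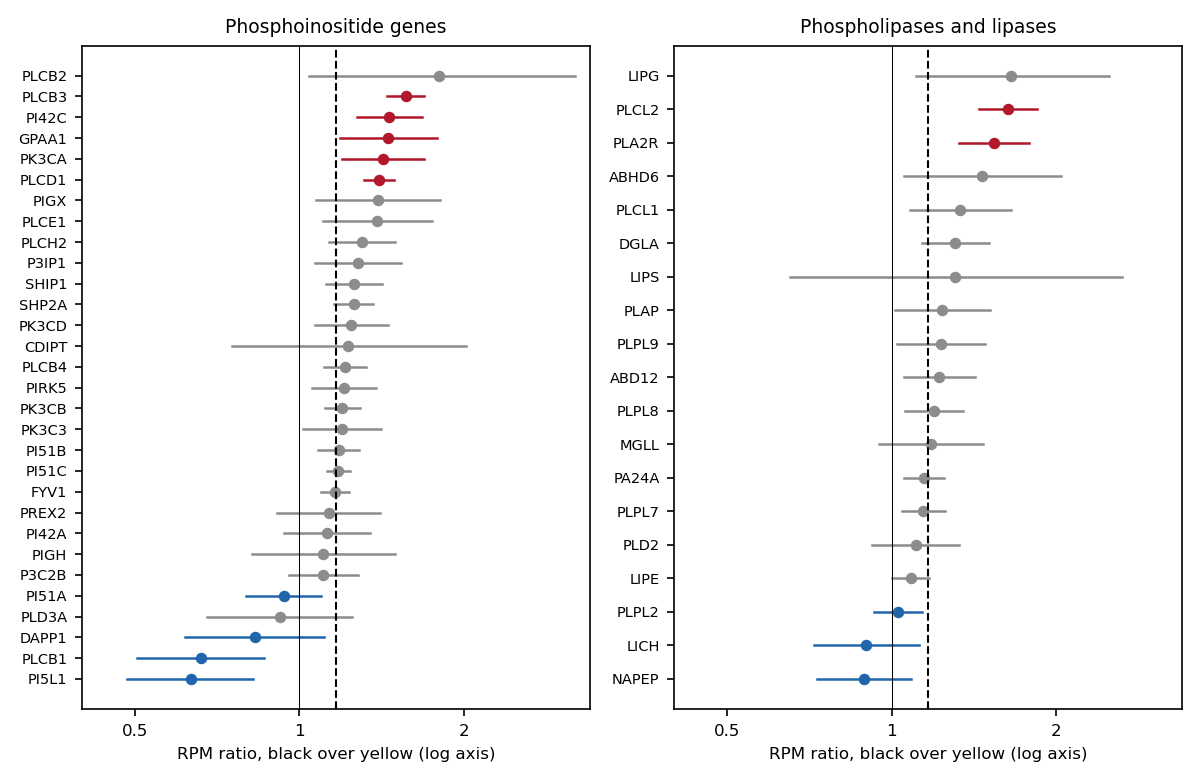
RPM ratio, black over yellow, on a log axis, with 95% counting intervals, for the 30 measured phosphoinositide genes (left) and the 19 measured phospholipases and lipases (right). The dashed line is the median ratio of all genes (1.17); red intervals lie wholly above it (5 and 2 genes), blue ones wholly below (4 and 3 genes), and grey ones include it.

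Sphingolipid genes sat with the bulk apart from a few. Their median log2 ratio was 0.18 over 13 measured genes of 17. As sums by name, only the sugar transferases that turn ceramide into glycolipids were above the bulk. NSMA2, with a summed ratio of 1.13 (0.958 to 1.32), held a unigene above it. This was c106403_g7, described as sphingomyelin phosphodiesterase 3, with a ratio of 1.56 (1.18 to 2.06). CEGT adds glucose and in mammals is needed for epidermal glucosylceramides. It was at 2.26 RPM in black skin and 1.04 RPM in yellow skin. Its RPM ratio was 2.17 (1.24 to 3.91), from 80 black and 40 yellow reads, with a macaque best match. CGT, which adds galactose, was at 15.5 RPM in black skin and 10.2 RPM in yellow skin, with an RPM ratio of 1.52 (1.26 to 1.83). The ceramide synthases CERS2 and CERS5 were at 61.2 RPM in black skin and 54 RPM in yellow skin for CERS2, and at 9.52 RPM in black skin and 9.47 RPM in yellow skin for CERS5, with log2 ratios of 0.18 and 0.01. A further CERS2 unigene whose description does not name the gene, and which is therefore no member, was at 254 RPM in black and 246 RPM in yellow skin. Its log2 ratio was 0.05 and its level exceeded the member sum, so the 0.18 of CERS2 holds for the member unigenes only. The desaturases DEGS1 and DEGS2, which finish ceramide and phytoceramide, had log2 ratios of 0.26 and 0.18. For the messenger sphingosine 1-phosphate, SPHK2, which makes it, SGPL1, which cleaves it, and SGPP1, which dephosphorylates it, were at 16 RPM in black skin and 13.2 RPM in yellow skin for SPHK2, at 56.9 RPM in black skin and 45.4 RPM in yellow skin for SGPL1, and at 52.2 RPM in black skin and 52.3 RPM in yellow skin for SGPP1. Of these SGPP1 was below the bulk, with a ratio of 0.998 (0.911 to 1.09). The receptors S1PR1 and S1PR2 were at 172 RPM in black skin and 165 RPM in yellow skin for S1PR1, and at 94.5 RPM in black skin and 85.1 RPM in yellow skin for S1PR2; S1PR1 was below the bulk and its main unigene is closest to the zebrafish receptor 5a.

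Sterol genes held the widest spread of any role, with log2 ratios between -0.71 and 0.67. Their standard deviation was 0.40 across 12 measured genes, against 0.30 for all genes. The extremes were low genes: NSDHL, MSMO1 and SC5D had means of 1.95, 2.49 and 4.55 RPM. Among the 8 sterol genes with a mean of at least 5 RPM, log2 ratios ran only from 0.04 to 0.55. Enzymes of cholesterol synthesis stood at both ends. SC5D and DHCR7, which carry out the last steps, were at 5.82 RPM in black skin and 3.29 RPM in yellow skin for SC5D, and at 18.4 RPM in black skin and 12.3 RPM in yellow skin for DHCR7. Their ratios of 1.77 (1.28 to 2.46) and 1.5 (1.26 to 1.78) were above the bulk. NSDHL and MSMO1, which act earlier and together remove the methyl groups at carbon 4, were at 1.24 RPM in black skin and 2.66 RPM in yellow skin for NSDHL, and at 1.95 RPM in black skin and 3.03 RPM in yellow skin for MSMO1. Their ratios of 0.467 (0.27 to 0.784) and 0.644 (0.41 to 0.999) were below it. These rest on few reads, 44 black and 102 yellow for NSDHL and 69 black and 116 yellow for MSMO1. ERG7, lanosterol synthase, lay between at 3.42 RPM in black skin and 2.45 RPM in yellow skin, with an RPM ratio of 1.39 (0.937 to 2.09).

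Sterol handling genes were less spread. NLTP, the sterol carrier protein, at 19 RPM in black skin and 13.6 RPM in yellow skin, and SRBP1, the transcription factor that switches on lipid synthesis, at 80.9 RPM in black skin and 63.9 RPM in yellow skin, were above the bulk with ratios of 1.39 (1.18 to 1.64) and 1.27 (1.17 to 1.37). SOAT1, which esterifies cholesterol for storage, was at 13.1 RPM in black skin and 9.96 RPM in yellow skin, and NCEH1, which frees it, at 37 RPM in black skin and 34.5 RPM in yellow skin; both intervals included the bulk. CH25H, which makes 25-hydroxycholesterol, was at 81.2 RPM in black skin and 79.1 RPM in yellow skin, with an RPM ratio of 1.03 (0.954 to 1.1), below the bulk. CP27A and CP7B1, hydroxylases of the oxysterol and bile acid routes, had log2 ratios of 0.12 and 0.18. The median of the role was 0.26; it lay above the median of all genes, and below it when the totals left out the 100 most abundant unigenes or when no minimum level was set.

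Listed sterol genes outside the word rule lay mostly above the median of all genes, 4 of 5 for synthesis and 3 of 4 for control and uptake. None was below the bulk by its interval, where 20.0% of all genes were. Lists this short cannot tell such counts from the background. Of 16 listed for synthesis, 5 were annotated beyond the members, all 5 were measured, and none was past 2-fold. PMVK, a kinase of the mevalonate route, and THIC, the thiolase that supplies it, were past 1.5-fold on the black side, at 3.08 RPM in black skin and 1.62 RPM in yellow skin for PMVK, and at 6.86 RPM in black skin and 3.65 RPM in yellow skin for THIC. Of all measured genes 6.81% were past 1.5-fold on that side. HMDH, the rate-limiting reductase, was at 42.2 RPM in black skin and 39.9 RPM in yellow skin, with an RPM ratio of 1.06 (0.955 to 1.17), and HMCS1, the synthase before it, had an RPM ratio of 1.22 (0.937 to 1.58). For sterol control and uptake 4 of 11 listed were annotated beyond the members, and all 4 were measured. SCRB1, a receptor for lipoproteins and carotenoids, was past 1.5-fold at 5.14 RPM in black skin and 2.84 RPM in yellow skin, while NPC2, which carries cholesterol out of lysosomes, was at 52.6 RPM in black skin and 46.2 RPM in yellow skin. ABCA1 and NPC1 had log2 ratios of 0.25 and 0.28. Of the lists for nuclear receptors and lipid droplets, PPARG, LPIN1 and LPIN2 were measured, with ratios of 0.946 (0.793 to 1.13), 0.715 (0.659 to 0.775) and 1.12 (0.996 to 1.27). LPIN1, a phosphatidate phosphatase, was below the bulk at 55.1 RPM in black skin and 77.1 RPM in yellow skin. Over all lists 23 of 24 genes annotated beyond the members were measured, and none was past 2-fold. Of the 23, 4 were above and 11 below the bulk, where 19.0% and 20.0% of all genes were. The fat cell markers adiponectin and perilipin, the 2 annotated of 5 listed, were near 0, with sums of 0.508 RPM in black and 0.209 RPM in yellow skin, and both had pig best matches.

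**Figure D4:**
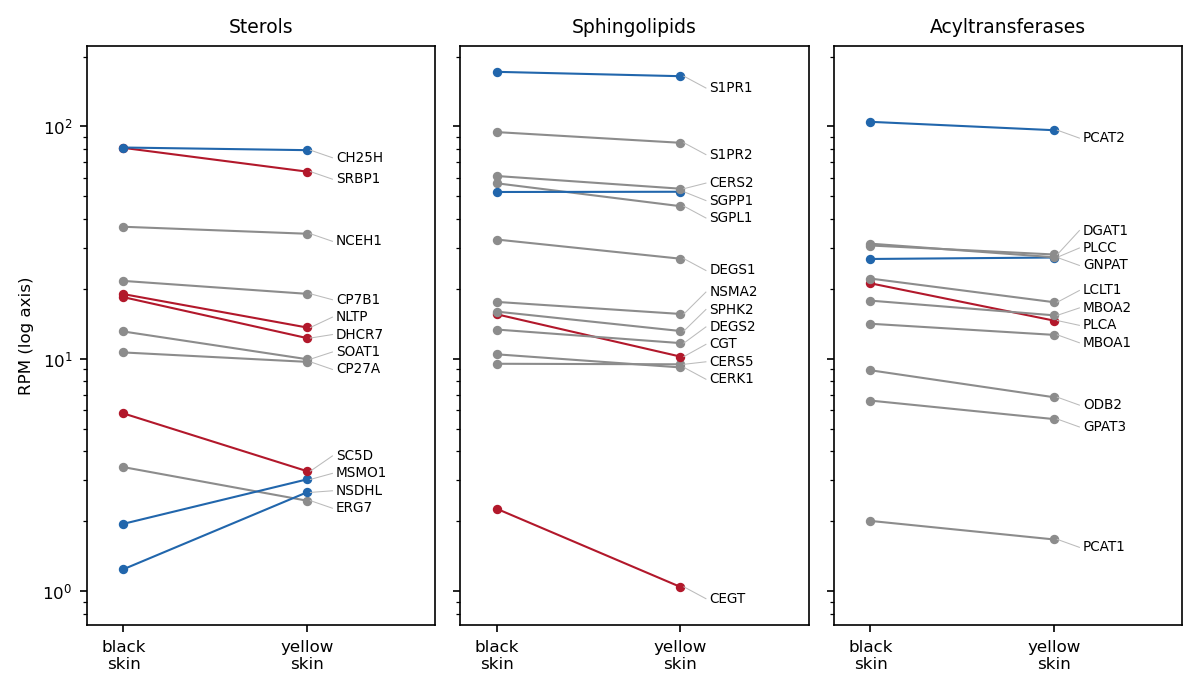
Level in RPM (log axis) of each measured gene of sterol, sphingolipid and acyltransferase roles in black skin (left of each panel) and yellow skin (right). Red lines are genes whose counting interval lay wholly above the median ratio of all genes, blue ones wholly below, grey ones included it; in the sterol panel the lines of NSDHL and MSMO1 run upward towards yellow skin while those of SC5D and DHCR7 run downward.

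The 4 genes left without a role by the keywords act on acyl-CoA in peroxisomes or in elongation. THIKB, the peroxisomal thiolase, AMACR, a racemase for branched chains, and HACL1, a lyase for 2-hydroxy chains, were at 13 RPM in black skin and 11.4 RPM in yellow skin for THIKB, at 8.95 RPM in black skin and 8.19 RPM in yellow skin for AMACR, and at 2.34 RPM in black skin and 1.72 RPM in yellow skin for HACL1, and each interval included the bulk. DH12A, the ketoacyl-CoA reductase of elongation, was at 63 RPM in black skin and 62.3 RPM in yellow skin, with an RPM ratio of 1.01 (0.931 to 1.1), below the bulk. Below the minimum were 12 genes, with 6 to 31 black and 3 to 42 yellow reads; PLCH1, a phospholipase C, had 17 black and 3 yellow reads. None of the 12 had an interval wholly beyond 2-fold. SMS2, which makes sphingomyelin, came closest on the yellow side with 13 black and 42 yellow reads, with an RPM ratio of 0.335 (0.116 to 0.837). CERS6 had 27 black and 8 yellow reads, with an RPM ratio of 3.66 (1.14 to 15.3). SMS2, CERS6 and PLCH1 are named after their values were seen.

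Unigenes that share a Swiss-Prot name did not always share a ratio. Of the 131 genes, 103 rested on 1 unigene, and 21 had several measured unigenes. Within these 21 the log2 ratios of a gene differed by a median of 0.40, and in 13 they lay on both sides of the median of all genes. No lipid unigene of 144 measured was at least 2-fold apart, where 1.09% of all 31795 measured unigenes were (0.783% higher in black and 0.302% higher in yellow skin). At 1.5-fold 11 lipid unigenes were higher in black skin, or 7.64%, against 6.95% of all, and 4 in yellow skin, or 2.78%, against 2.25%. PTSS1 held the highest unigene, c104873_g2, at 4.97 RPM in black skin and 2.14 RPM in yellow skin with a log2 ratio of 0.93, beside c107927_g1 at 10.5 RPM in black skin and 9.78 RPM in yellow skin with 0.09. PI51A held the lowest among these genes, c107624_g1, at 3.02 RPM in black skin and 5.29 RPM in yellow skin with -0.65, beside c107624_g3 with 0.11. For ELOV1 the unigenes correspond by their descriptions to different zebrafish genes: elovl1b (c106896_g3) was at 102 RPM in black skin and 84.9 RPM in yellow skin and elovl1a (c104543_g1) at 18.8 RPM in black skin and 21.5 RPM in yellow skin, with ratios of 1.2 (1.12 to 1.28) and 0.876 (0.756 to 1.01), whose intervals did not overlap. The TECR unigenes, at 35.7 RPM in black skin and 29.9 RPM in yellow skin for c111106_g4 and 26.2 RPM in black skin and 29.8 RPM in yellow skin for c98900_g1, were placed likewise. For PI51C the unigene c107539_g4 was at 38.2 RPM in black skin and 23.2 RPM in yellow skin (log2 ratio 0.69) and the dominant c110612_g1 at 157 RPM in black skin and 143 RPM in yellow skin (0.13). With the most abundant unigene alone in place of the sum, the intervals of GNPAT (0.904 to 1.28), TECR (1.07 to 1.34) and PI51A (0.907 to 1.3) included the bulk, like those of ACSL3 and PLCB1, and those of PI51C (1.04 to 1.16) and NSMA2 (0.763 to 1.15) lay below it. The NSMA2 unigenes too are described as different genes, sphingomyelin phosphodiesterase 5 (c101583_g1) and 3 (c106403_g7). Their ratios were 0.937 (0.763 to 1.15) and 1.56 (1.18 to 2.06), below and above the bulk. Where descriptions name the same gene, whether unigenes are gene copies, isoforms or fragments cannot be told apart from the annotation.

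**Figure D5:**
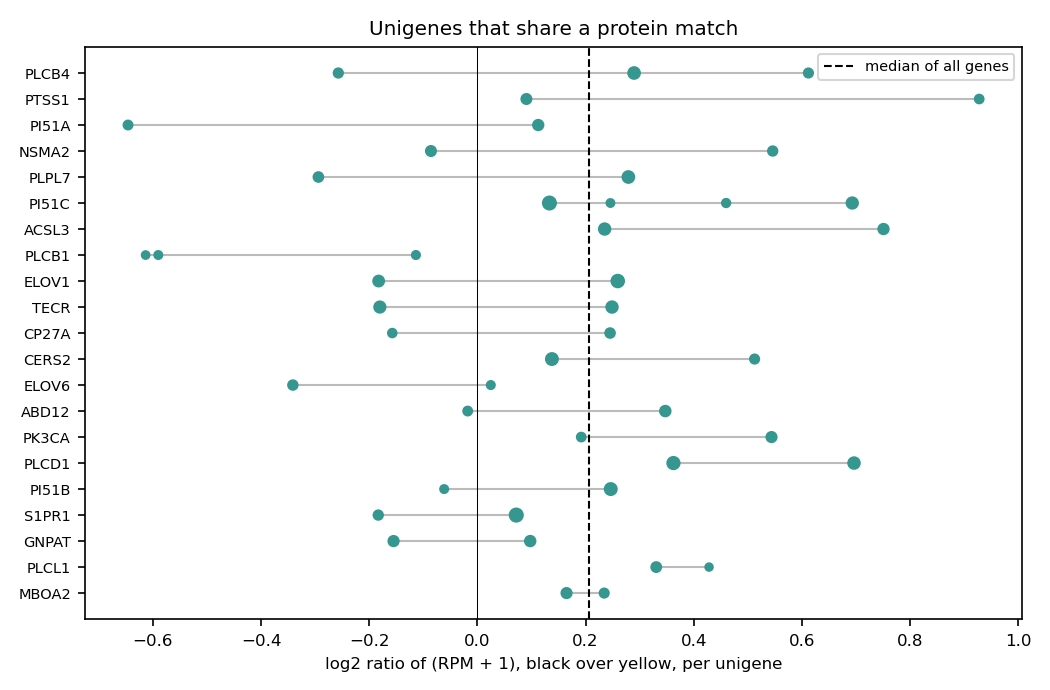
Log2 ratio of (RPM + 1), black over yellow, of each measured unigene (points, larger for higher mean RPM) for the 21 lipid genes with several measured unigenes, ordered by their range. The dashed line is the median of all genes (0.21); 13 genes have unigenes on both sides of it, and PLCB4 and PTSS1 span the widest ranges.

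By predicted protein features, which the choice of members did not use, 37.3% of the 169 lipid unigenes had at least 1 transmembrane helix, against 25.2% of all annotated unigenes. The share was 80.0% of 20 sphingolipid unigenes, 71.4% of 14 acyltransferase unigenes and 63.2% of 19 of fatty acid synthesis. It was 10.2% of 49 phosphoinositide unigenes, and no unigene of the 8 of fatty acid oxidation had one. A signal peptide was predicted for 6.51% of lipid unigenes and 9.80% of all annotated ones.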

How the data were processed

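RNA sequencing of 1 black and 1 yellow skin library was used. Per the labels' protocols, Trizol served for extraction and library preparation was standard Illumina. GRCz11, a zebrafish build, is named in the submitters' processing notes without its role. Assembler, aligner and counter were not given in the sources used here. The authors deposited 1 normalised signal per unigene, read here from the values as RPM, with no unit in the file headers. Each unigene was used once (4131 of 128781 rows repeat one, with the same value). The deposited annotation holds match scores and other entries that are no expression values, and served for names only. It covers 4.55% of the unigenes; genes it does not name were not analysed here.

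Whole reads were recovered from the step between values (0.0282 RPM in black and 0.0261 RPM in yellow skin); 100% of black and 99.999% of yellow values were whole within 0.1 read, with the lowest value read as 0 reads. With 1 library per colour no count test could be fitted, so none was run. More unigenes had 2 reads (8897 black, 9992 yellow) than 1 (6459, 7308) or 3 (7299, 8014), so mates appear to be counted separately and each pair was counted once in the intervals, which are Clopper-Pearson at 95% conditional on the sum of both libraries. Intervals cover counting error only and are approximate at odd reads. A count of 0 allows up to 3 reads, 0.0847 RPM in black and 0.0782 RPM in yellow skin, if reads are counted singly. It allows more if pairs are the unit, as in the intervals.

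Genes are sums of unigenes by BLASTX name. A call is a 2-fold difference on log2(RPM + 1), for a mean of at least 1 RPM. Named genes (45) are the 2 highest, 2 lowest and the most abundant of each role, plus the 5 most abundant; others are named to complete a family after their values were seen. Members and lists were chosen with earlier results of these data known. Roles came from keywords in the descriptions. The steps were tested on simulated data. TMM factors came from edgeR 4.0.16 in R 4.3.3; the rest used Python 3.11.15, pandas 2.3.3, numpy 2.4.6 and scipy 1.17.1, with figures by matplotlib 3.10.9.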

Additional observations from a re-analysis of the deposited data

How the results depend on the processing

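No paired analysis was possible because there is 1 library per colour, and no library could be left out. The 8 alternatives for scaling, pseudocount, minimum, joining of unigenes and naming were planned, as were the 2 other call rules; summing all unigenes of a Swiss-Prot name, leaving out unigenes with a mammal as best match, and comparing intervals with the median ratio were chosen after seeing the data. Rescaling shifts all genes together: the median log2 ratio of lipid genes was 0.024 with TMM scaling, against 0.03 for all genes, and 0.022 against 0.04 with totals that left out the 100 most abundant unigenes. Role medians were then 0.0009 for sphingolipids, 0.075 for sterols, 0.077 for phosphoinositides, 0.098 for phospholipases and lipases, -0.13 for fatty acid synthesis, -0.18 for fatty acid oxidation, -0.082 for fatty acid activation, 0.022 for acyltransferases, 0.13 for phosphatidylserine metabolism and -0.024 for the genes with no role with TMM scaling, and -0.0024 for sphingolipids, -0.0019 for sterols, 0.083 for phosphoinositides, 0.099 for phospholipases and lipases, -0.13 for fatty acid synthesis, -0.19 for fatty acid oxidation, -0.083 for fatty acid activation, 0.022 for acyltransferases, 0.13 for phosphatidylserine metabolism and -0.026 for the genes with no role with the other totals. Against the median of all genes, fatty acid oxidation stayed lower under all 10 alternatives (differences from -0.25 to -0.17), as did fatty acid synthesis (-0.17 to -0.08), and phosphoinositides stayed higher (0.04 to 0.07). The difference for phosphoinositides is small beside the standard deviation of 0.28 across these genes. With no minimum the sterol median was 0.15, at a minimum of 5 RPM that of fatty acid activation was 0.25, and with a single unigene per gene, the most abundant, that of phosphatidylserine metabolism was 0.20. The count of lipid genes past 2-fold, 0, was 2 with a pseudocount of 0.1 (CEGT at 1.04 and NSDHL at -1.04, both low), 6 at the 1.5-fold rule, and 0 with an interval wholly beyond 2-fold and under each of the other alternatives run. Of the 45 named genes, 1 to 4 crossed the median of all genes under 6 of the 10 alternatives. Depth limits genes of a few RPM, where intervals span more than 2-fold.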
